A study of Homo sapiens with 6 samples.

Results

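The genes of the proteasome were taken from the GENCODE 44 annotation of the human genome build hg38 as the protein-coding genes on chromosomes 1 to 22 and X whose symbol begins with PSMA, PSMB, PSMC, PSMD, PSME, PSMF or PSMG. This gave 50 genes of 19970 protein-coding genes. A further 7 long non-coding RNA genes, 42 processed pseudogenes, 1 transcribed processed pseudogene and 1 unprocessed pseudogene carry such symbols and were left out. For each gene the 3 kb on either side of the transcription start site (TSS) of its canonical transcript was examined for peaks of histone lysine acetylation (Kac) and histone lysine benzoylation (Kbz).

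The chromatin came from HepG2, an established human line of liver tumour origin, grown without treatment (control) or with 10 mM sodium benzoate (SB) for 24 h. ChIP-seq, which sequences the DNA bound by histones that an antibody pulls down, was run with pan antibodies against Kac and Kbz, so the histone and the lysine behind a peak are not known. There were 6 libraries, 1 for each of control input, control Kac, control Kbz, SB input, SB Kac and SB Kbz, and all were of the same cell line. Peak lists of 3 libraries were used: control Kac with 70326 peaks, SB Kac with 63282 and SB Kbz with 24308. For control Kbz the labels state that no peak was called, so every Kbz value below is from SB-treated cells, and the input libraries were not analysed here. With 1 library per group there was no replicate error and no test was possible. The lists carry no read totals, so depth is unknown, and a gene without a peak had no enrichment that was detected in that library. Each count of proteasome genes is therefore set beside the share of all protein-coding genes with the same property, and each peak is given by its fold percentile, the percentage of peaks in its own list whose fold over background was at or below its own. Where a gene had several peaks, the one with the highest fold was used.

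The defining genes of liver cells were mostly without peaks in these libraries. Of 10 liver markers, 3 had a control Kac peak within 3 kb, 3 had one of SB Kac and 2 one of SB Kbz, and only 1 had its TSS under a peak in each list. AFP, ALB, APOB, FOXA2, HNF4A, SERPINA1 and TTR had none in any list. Of 10 markers of blood, stromal, endothelial and neuronal cells, 6, 7 and 3 had a peak in the same order, with 2, 1 and 0 TSSs covered. Of all protein-coding genes, 73.1%, 72.1% and 60.5% had a peak, and 59.3%, 60.5% and 45.9% had the TSS covered. The markers of other cells were near these shares in Kac peaks within 3 kb and below them in Kbz and in TSSs covered. The liver marker counts were below them throughout and go against the label's defining genes. The cells are called HepG2 here as labelled, and the part of this in the results below was not tested.

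The proteasome is the cell's main protease for proteins tagged with ubiquitin. Its barrel, the 20S core particle, is built of outer rings of alpha subunits and inner rings of beta subunits, some of which hold the cutting sites. The 19S regulatory particle caps the barrel: its ATPase subunits unfold the substrate and thread it in, and its non-ATPase subunits bind and remove ubiquitin. The particle is needed in every cell type, while some variants are particular to germ cells, to the thymus, or to immune cells and cells under interferon.

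The stretches before the start sites of 6 genes are shown first, because these genes mark the extremes described below: PSMA8, PSMB11, PSMD5 and PSME1 lacked a peak of at least 1 list, PSMD2 had the lowest fold percentile of Kbz among the 19S subunits, and PSMB5 had one of the 3 highest of all. The letters are from RefSeq (GRCh38.p14), 200 bases each, with CG dinucleotides in capitals. The stretch of PSMB5 ends at the base before the canonical start, and the others end 50 bases further upstream. The annotated PSMB5 gene extends to base 23035230, so its stretch lies inside the gene, downstream of another annotated start. The stretch of PSMD5 overlaps an annotated exon of the pseudogene CUTALP.
PSMA8, chr18:26133619-26133818, plus strand: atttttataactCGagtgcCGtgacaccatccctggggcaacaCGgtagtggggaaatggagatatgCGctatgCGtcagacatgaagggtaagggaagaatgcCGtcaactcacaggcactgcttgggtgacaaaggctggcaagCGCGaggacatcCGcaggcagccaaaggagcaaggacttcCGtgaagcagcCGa
PSMB5, chr14:23034901-23035100, minus strand: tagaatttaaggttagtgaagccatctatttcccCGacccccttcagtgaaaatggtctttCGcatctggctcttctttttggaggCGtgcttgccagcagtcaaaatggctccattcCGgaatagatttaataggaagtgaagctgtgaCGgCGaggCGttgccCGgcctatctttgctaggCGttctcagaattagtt
PSMB11, chr14:23041962-23042161, plus strand: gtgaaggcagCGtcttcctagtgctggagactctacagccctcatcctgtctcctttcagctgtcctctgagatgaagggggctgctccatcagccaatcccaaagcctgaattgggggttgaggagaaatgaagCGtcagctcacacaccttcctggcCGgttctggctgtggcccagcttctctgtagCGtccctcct
PSMD2, chr3:184298991-184299190, plus strand: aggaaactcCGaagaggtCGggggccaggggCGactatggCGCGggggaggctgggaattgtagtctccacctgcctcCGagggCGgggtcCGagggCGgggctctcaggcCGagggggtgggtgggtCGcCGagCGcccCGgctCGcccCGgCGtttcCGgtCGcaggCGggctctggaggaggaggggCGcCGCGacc
PSMD5, chr9:120842973-120843172, minus strand: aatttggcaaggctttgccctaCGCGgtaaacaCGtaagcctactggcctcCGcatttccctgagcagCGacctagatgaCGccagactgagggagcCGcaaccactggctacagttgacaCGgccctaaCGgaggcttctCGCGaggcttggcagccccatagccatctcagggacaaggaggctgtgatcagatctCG
PSME1, chr14:24135944-24136143, plus strand: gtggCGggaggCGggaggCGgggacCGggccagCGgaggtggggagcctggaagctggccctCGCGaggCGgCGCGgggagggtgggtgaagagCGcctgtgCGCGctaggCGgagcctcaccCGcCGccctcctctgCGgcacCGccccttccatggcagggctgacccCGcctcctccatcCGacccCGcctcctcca
The stretch before PSMB11 held 4 CG dinucleotides, against 21 before PSME1 and 23 before PSMD2. PSMA8 held 11, PSMD5 12 and PSMB5 9. The 2 genes of this set with the most CG dinucleotides thus differed in their Kbz record: PSMD2 had a Kbz peak over its TSS and PSME1 had none within 3 kb.

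Most proteasome genes carried peaks of all 3 lists. A Kac peak lay within 3 kb of the TSS at 48 of 50 genes in control cells and at 46 of 50 after SB, where 73.1% and 72.1% of all protein-coding genes had one. A Kbz peak lay there at 45 of 50 genes, against 60.5% of all protein-coding genes. The mitochondrial ribosomal protein genes had shares of 97.4%, 97.4% and 94.9% in the same order, and the cytosolic ones 100% in every list. High shares were therefore not particular to the proteasome genes. All 3 lists had a peak at 45 proteasome genes (60% of all protein-coding genes), and no list had one at 2, PSMB8 and PSMD5 (24.3%). Of the 46 genes with Kac after SB, 45 also had Kbz, where the share over all protein-coding genes with Kac after SB was 83.6%. The 1 exception was PSMA8. Of the 48 genes with Kac in control cells, 2 had none after SB, PSMB11 and PSME1, which at 4.17% was near the 4.74% of all protein-coding genes. The strongest of the control Kac peaks of PSMB11 had a −log10 q of 1.88, and with peaks limited to a −log10 q of at least 2, the stated false discovery rate of 0.01, PSMB11 had no control Kac peak either.

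The peaks mostly ran across the start of the gene. A peak covered the TSS itself at 44 of 50 genes when Kac of control cells was taken (59.3% of all protein-coding genes), at 44 with Kac after SB (60.5%) and at 41 with Kbz (45.9%). The TSS was also covered at 75, 76 and 71 of 78 mitochondrial ribosomal protein genes, and at all 77 cytosolic ones in every list. At 1000 bp upstream of the TSS the numbers of proteasome genes were 26, 28 and 15, and over all protein-coding genes the shares were 42.1%, 40.1% and 20.6%. At 1000 bp downstream 33, 35 and 16 genes were under a peak, against 43.9%, 47.0% and 21.6%. Kbz fell off closer to the start than Kac did on both sides, among the proteasome genes and among all protein-coding genes. At 3000 bp upstream 7, 6 and 3 genes were under a peak and at 3000 bp downstream 1, 4 and 1. Upstream these were 14%, 12% and 6% of the genes, against 12.9%, 12% and 3.3% of all protein-coding genes, and downstream they were 2%, 8% and 2%, against 13.1%, 14.6% and 2.5%. For Kac the proteasome genes stood above the genome-wide curve at the start, near it 3000 bp upstream and below it 3000 bp downstream.

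**Figure D1:**
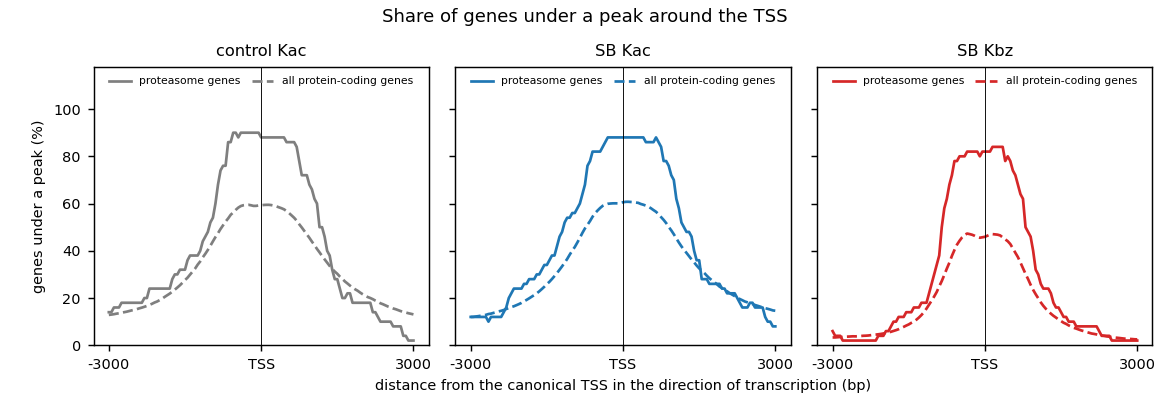
Share of genes whose position at a given distance from the canonical TSS lies under a peak (y axis, percent) against that distance in bp (x axis, negative values upstream), for the 50 proteasome genes (solid) and all 19970 protein-coding genes (dashed) in each list. At the TSS the solid lines stand at 88.0%, 88.0% and 82.0% and the dashed lines at 59.3%, 60.5% and 45.9%.

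Most Kbz peaks were shorter than the Kac peaks and lay within them. The strongest peak per gene had a median length of 2649 bp for Kac in control cells (48 genes), 2790 bp for Kac after SB (46 genes) and 1853 bp for Kbz (45 genes), and over all protein-coding genes with a peak these medians were 2561, 2682 and 1642 bp. The Kbz peak was shorter than the Kac peak of the same SB-treated cells at 42 of 45 genes (94% of all protein-coding genes with both), and its length was a median 0.725 of the Kac length, against 0.592 over all protein-coding genes. The cytosolic and mitochondrial ribosomal protein genes had similar medians, 0.707 and 0.733. At 36 of 45 genes every base of the Kbz peak was inside a Kac peak of SB-treated cells (79.9% of all protein-coding genes with Kbz). The 3 exceptions in length were PSMB5, where the Kbz peak was 1.23 times as long as the Kac peak, PSMB7 at 1.05 and PSMD4 at 1.05. The largest share of Kbz outside Kac was at PSMB9, where 61.1% of the bases were inside.

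The peaks reached about as far upstream of the start as downstream. Among genes whose strongest peak covered the TSS, it reached further downstream than upstream at 20 of 43 genes for Kac in control cells (53.7% of all protein-coding genes), at 23 of 44 for Kac after SB (59.3%) and at 18 of 41 for Kbz (52.2%). The Kbz peak reached a median 872 bp upstream and 897 bp downstream, close to the 855 and 887 bp of all protein-coding genes. The cytosolic ribosomal protein genes, another set that every cell uses, had medians of 992 bp upstream and 1815 bp downstream. The mitochondrial ribosomal protein genes had 900.5 and 783.5 bp, so the short reach was not particular to the proteasome genes.

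**Figure D2:**
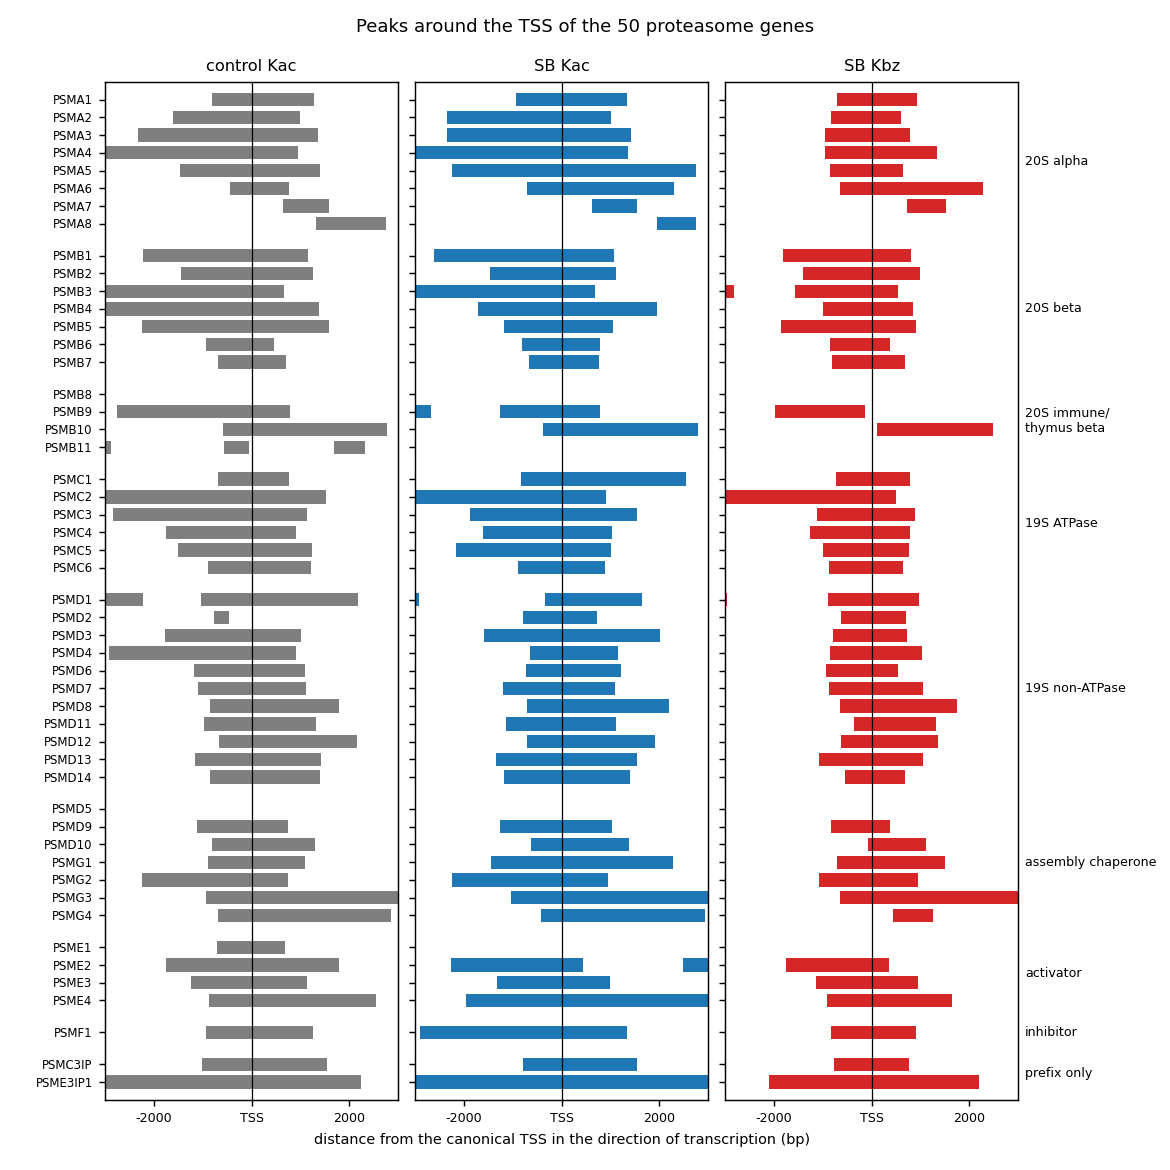
Peaks within 3 kb of the canonical TSS of each of the 50 proteasome genes (rows, grouped by role) for control Kac, SB Kac and SB Kbz, drawn to scale in bp along the direction of transcription and clipped at 3000 bp on either side. The rows of PSMB8 and PSMD5 are empty in all panels, and the strongest Kbz peak is shorter than the strongest SB Kac peak at 42 of 45 genes.

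Within their lists the proteasome peaks ranked above the middle. The proteasome genes had median fold percentiles of 84.3 (control Kac), 92.0 (SB Kac) and 73.1 (SB Kbz), where the strongest peaks of all protein-coding genes had medians of 81.8, 85.4 and 67.8. In SB Kac the genes had quartiles of 89.9 and 94.7. The Kbz percentiles were spread more widely, with quartiles of 62.3 and 89.0 and a range from 17.2 to 98.0 over the 45 genes. The cytosolic ribosomal protein genes ranked higher in every list, with medians of 97.4, 97.9 and 91.5 and a peak at 77 of 77 genes, and the mitochondrial ribosomal protein genes had medians of 87.7, 94.3 and 81.1. High ranks were therefore not particular to the proteasome genes.

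**Figure D3:**
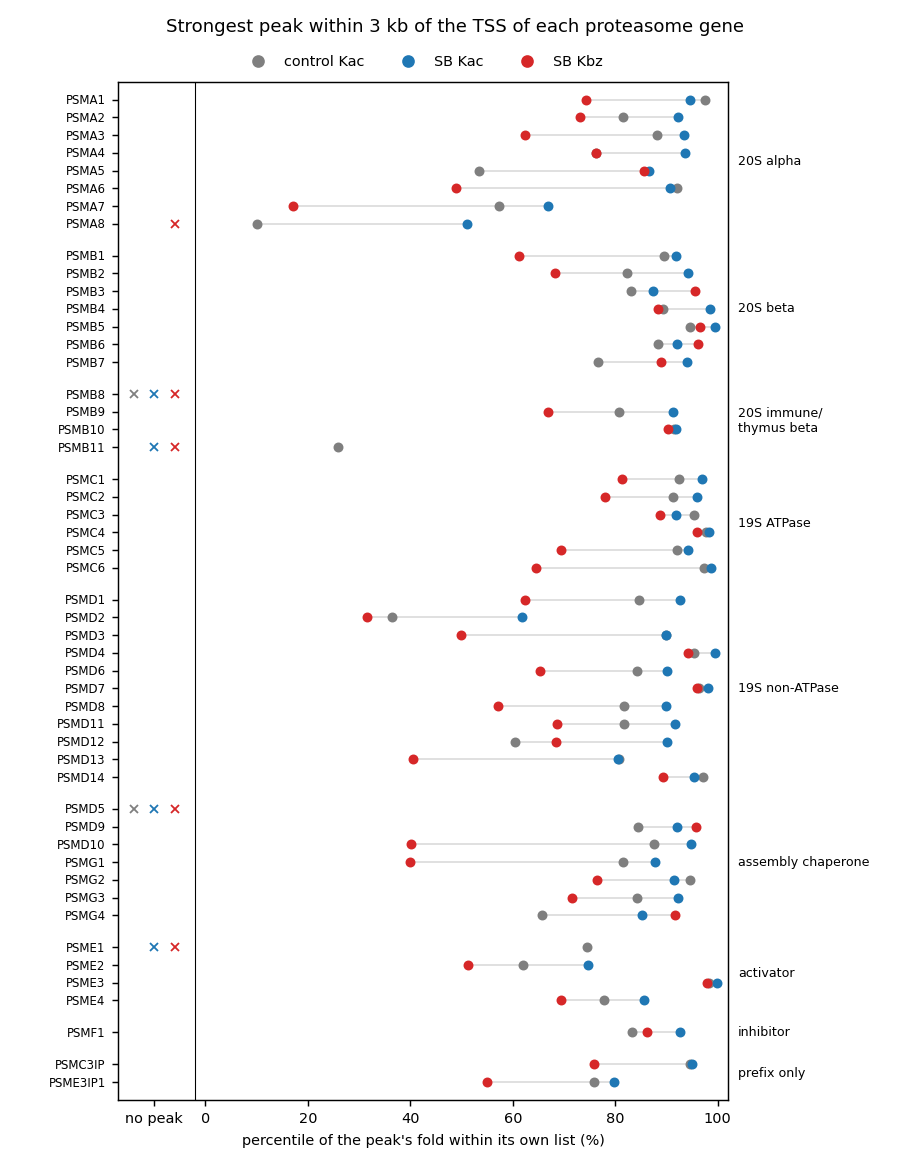
Fold percentile of the strongest peak within 3 kb of the TSS (x axis, percent of peaks in the same list at or below it) for each proteasome gene (rows, grouped by role) in control Kac, SB Kac and SB Kbz, with a cross at the left where no peak was listed. The SB Kac points have quartiles of 89.9 and 94.7, while the Kbz points run from 17.2 at PSMA7 to 98.0 at PSME3.

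Of the 8 alpha subunit genes, all had Kac in both lists and 7 had Kbz, with median percentiles of 78.9 (Kac, control), 91.5 (Kac, SB) and 73.1 (Kbz, SB). Groups of 3 percentiles below follow this order. PSMA1, PSMA2, PSMA3, PSMA4, PSMA5 and PSMA6 had all 3 peaks over the TSS. PSMA5 had the widest difference in rank among these, from 53.5 in control Kac to 86.6 in SB Kac, with Kbz at 85.6. PSMA1 went the other way, from 97.4 to 94.5, with Kbz at 74.3. The Kbz percentiles of PSMA2, PSMA3, PSMA4 and PSMA6 ran from 48.8 to 76.2. PSMA7 was the alpha subunit with peaks of every list but none over its TSS: they began 654 bp (control Kac), 621 bp (SB Kac) and 732 bp (SB Kbz) downstream, inside the gene. Its percentiles were 57.4, 66.9 and 17.2, and the last was the lowest Kbz value of all. The −log10 q of that Kbz peak was 1.97, so it does not reach the stated false discovery rate of 0.01 either. The start of SS18L1, a gene read in the opposite direction, lies 375 bp from that of PSMA7.

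PSMA8 encodes the alpha subunit of the proteasome of male germ cells. Its Kac peaks lay inside the gene, 1323 bp downstream of the TSS in control cells (1443 bp long, percentile 9.98) and 1957 bp downstream after SB (803 bp long, percentile 51.0). No Kbz peak lay within 3 kb, and the nearest was 42272 bp away, over the TSS of SS18. PSMA8 was therefore the only gene of the set with Kac and without Kbz in SB-treated cells, and its Kac covered the start in neither list.

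The 7 genes of the beta subunits used in all cells had every TSS under a peak of every list. Their median percentiles were 88.4, 94.0 and 89.0. PSMB5, PSMB6 and PSMB7 encode the subunits with the cutting sites. PSMB5 had percentiles of 94.5, 99.5 and 96.4, PSMB6 of 88.4, 92.1 and 96.1, and PSMB7 of 76.6, 94.0 and 89.0. The Kbz values of PSMB5 and PSMB6 were among the 3 highest of all proteasome genes. Of the other 4, which have no cutting site, PSMB3 and PSMB4 had Kbz at 95.5 and 88.4, and PSMB1 and PSMB2 at 61.1 and 68.2.

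The next 4 genes encode catalytic subunits that replace these in particular cells. PSMB8, PSMB9 and PSMB10 are used in the immunoproteasome, which blood-lineage cells hold and other cells assemble under interferon, and which shapes the peptides shown on major histocompatibility class I molecules. PSMB11 is used in epithelial cells of the thymus. A Kac peak was present at 3 of these 4 genes in control cells and at 2 after SB, and Kbz was present at 2. With 4 genes, these counts do not stand apart from the 73.1%, 72.1% and 60.5% of all protein-coding genes. No Kbz peak covered the canonical TSS of any of them (45.9% of all protein-coding genes). This depends on the start chosen. With any annotated start counted, Kbz covered a start at 44 of the 50 proteasome genes, against 41 with the canonical TSS. PSMB10 had Kac over its TSS at percentiles of 91.4 and 91.9, and its Kbz peak, at 90.2, began 113 bp downstream. PSMB9 had Kac over its TSS at 80.7 and 91.2. Its Kbz peak, at 66.9, ended 130 bp upstream and lay over the TSS of TAP1, the peptide transporter gene that starts 488 bp away in the opposite direction.

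PSMB8 had no peak of any list within 3 kb of any of its 7 annotated starts, and none in the gene. The nearest lay 5164 bp (control Kac), 4769 bp (SB Kac) and 5164 bp (SB Kbz) downstream of its TSS and covered the start of TAP2, the partner of TAP1, at percentiles of 99.4, 99.95 and 99.3. A gene with peaks among the strongest of all 3 lists thus lay next to a gene with none. PSMB11, a gene of 1849 bp, had 3 control Kac peaks at percentiles of 26.0, 22.1 and 21.7, 633, 526 and 642 bp long, of which the nearest ended 49 bp before the TSS. After SB no Kac peak lay within 3 kb, with the nearest at 3465 bp, and the nearest Kbz peak, 5456 bp away, was the one over the start of PSMB5. These distances bracket the limit of the window: the strongest control Kac peak of PSMB11 ended 2882 bp before the TSS and was counted, and the SB Kac peak at 3465 bp was not. PSMB5 and PSMB11 start 7312 bp apart in opposite directions.

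The 6 ATPase genes, PSMC1 to PSMC6, were the most even group. All had peaks of every list over the TSS. Their percentiles ran from 91.3 to 97.7 in control Kac, with a median of 93.9, and from 91.8 to 98.8 in SB Kac, with a median of 96.5. The Kbz percentiles ran from 64.6 at PSMC6 to 95.9 at PSMC4, with a median of 79.7. Genes with nearly equal Kac thus differed in Kbz: PSMC6 and PSMC4 were at 98.8 and 98.3 in SB Kac. PSMC3 had the lowest difference in Kac rank between SB and control among all proteasome genes, from 95.3 to 91.8, with Kbz at 88.7.

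All 11 non-ATPase genes of the 19S particle in this set had peaks of every list, and the TSS was covered at all of them after SB by Kac and Kbz and at 10 in control cells by Kac. The 19S subunit genes ADRM1 and SEM1 do not carry these symbols and are counted with the other genes below. Median percentiles were 84.2, 90.2 and 65.4. PSMD4, a receptor for ubiquitin chains, had 95.4, 99.5 and 94.3, and PSMD7, the partner of the deubiquitinase, had 96.3, 98.1 and 96.0. PSMD14, which encodes that deubiquitinase, had 97.1, 95.4 and 89.3. At the other end was PSMD2, which encodes a large scaffold subunit of the base. Its control Kac peak was only 308 bp long, at percentile 36.5, and ended 465 bp before the TSS. After SB a Kac peak of 1515 bp at percentile 61.8 covered the TSS, and the Kbz peak there was 1348 bp long at percentile 31.6. PSMD2 thus had the lowest Kac and Kbz ranks of the 19S genes. PSMD13 and PSMD3 also had low Kbz, at 40.5 and 49.9, with SB Kac at 80.6 and 89.9. PSMD1, PSMD6, PSMD8, PSMD11 and PSMD12 had Kbz between 57.2 and 68.7.

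Of the 7 genes of assembly chaperones, which put the particles together and leave the finished enzyme, 6 had peaks of every list. Their median percentiles were 84.3, 91.7 and 74.0. PSMD9 had Kbz at 95.7, while PSMG1 and PSMD10 had 39.9 and 40.1, the next lowest of the 45 genes after PSMA7 and PSMD2, with SB Kac at 87.7 and 94.7. PSMG2 and PSMG3 had Kbz at 76.5 and 71.6. PSMG4 had a Kbz peak at 91.7 that was 821 bp long and began 441 bp downstream of the TSS, inside a Kac peak of 3350 bp that covered it. PSMD5, a chaperone of the ATPase ring, had no peak of any list within 3 kb of any of its 8 annotated starts, and none along its 27456 bp. The nearest were 24790 bp (control Kac), 22881 bp (SB Kac) and 25408 bp (SB Kbz) away and covered no coding TSS.

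The 4 activator genes encode caps that replace the 19S particle. PSME3, whose product acts in the nucleus, had percentiles of 98.2, 99.8 and 98.0, the highest of all proteasome genes in each list. PSME4 had 77.8, 85.5 and 69.4. PSME1 and PSME2 encode the subunits of the interferon-induced cap. PSME2 had peaks of every list over its TSS, at 61.9, 74.7 and 51.2. PSME1 had a control Kac peak over its TSS (chr14:24135495-24136870, 1376 bp, percentile 74.4) and no peak of SB Kac or SB Kbz within 3 kb. The nearest were 4539 and 4708 bp away and covered the TSS of EMC9. This was the 1 gene of the set that had Kac over its TSS in control cells and no Kac peak near it after SB. The peak was not at the threshold of the control list: its −log10 q was 5.06, while the lowest in that list was 1.31. It was not among the strongest 15000 peaks of that list. With each list cut to 15000 peaks, PSME1 therefore had no Kac peak in control or SB-treated cells.

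PSMF1, the gene of an inhibitor of the core particle, had 83.3, 92.7 and 86.3, all over the TSS. PSMC3IP and PSME3IP1 share the symbol's first letters but encode partners of PSMC3 and PSME3, not subunits. They had peaks of every list over the TSS, with Kbz at 75.9 and 55.0.

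Of the genes with Kac in both lists, 40 of 46 ranked higher in SB Kac than in control Kac, against 62.2% of all protein-coding genes with both. The median difference was +5.66 percentile points, against +2.2 over all protein-coding genes, +0.57 over the 77 cytosolic and +4.91 over 76 mitochondrial ribosomal protein genes. The median thus lay above that of genes at large and close to that of the mitochondrial ribosomal protein genes. The largest differences upward were +41.1 at PSMA8, +33.1 at PSMA5 and +29.8 at PSMD12, which went from 60.4 to 90.2. The control Kac peak of PSMA8 had a −log10 q of 1.93, under the 2 that the stated false discovery rate of 0.01 requires, and at that threshold PSMA8 had no control Kac peak and no difference could be given. The 6 genes that ranked lower in SB Kac were PSMC3 (-3.52 points), PSMG2 (-3.13, from 94.6 to 91.5), PSMA1 (-2.95), PSMD14 (-1.75), PSMA6 (-1.39) and PSMD13 (-0.18). Of these, 5 had control Kac percentiles from 92.1 to 97.4, and PSMD13 was at 80.8. A percentile is a rank within a list, and the SB Kac list holds fewer peaks, so the differences are not changes in the amount of Kac. The strongest control and SB peaks of a gene need not be the same peak. At PSMD1 the control Kac peak used ended 2220 bp before the TSS, while the SB Kac peak used covered it. With the peak nearest the TSS taken instead, SB Kac again ranked higher at 40 of 46 genes. Lengths of the strongest peaks were divided about evenly: the SB Kac peak was the longer at 24 of 46 genes, against 54.1% of all protein-coding genes.

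**Figure D4:**
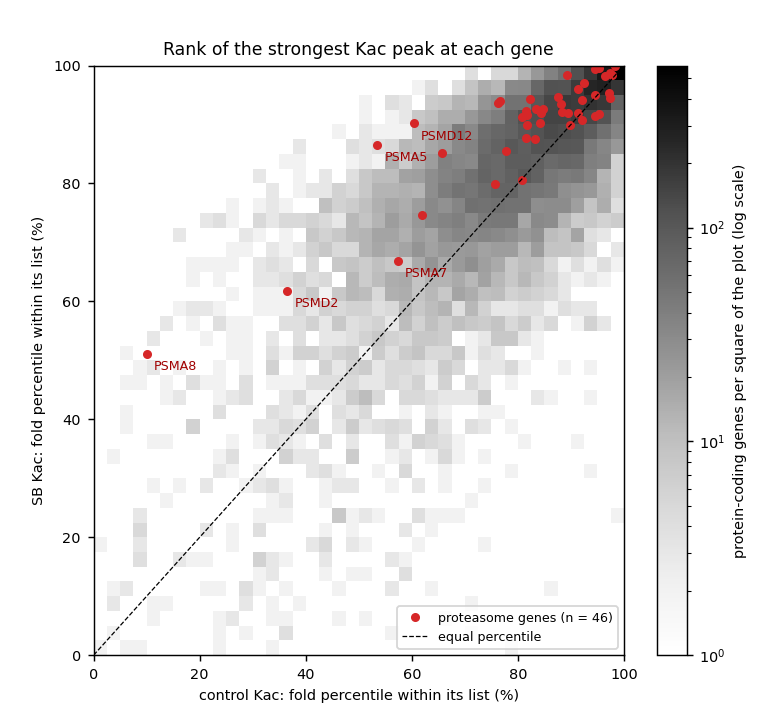
Fold percentile of the strongest peak near each gene in SB Kac (y axis) against control Kac (x axis), both in percent, for the 46 proteasome genes with both (red) over all 13898 protein-coding genes with both (grey, log scale). The red points lie above the line of equal percentile at 40 of 46 genes, with PSMA8, PSMA5 and PSMD12 farthest above it.

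Some of the peaks lay near the start of another annotated gene. At 15 of 50 genes (30.0%) the TSS of another protein-coding gene lay within 3 kb, against 17.2% of all protein-coding genes, and at 8 of 50 a gene read in the opposite direction away from it started within 1 kb, against 8.79%. Among the 15, the nearest such TSS was that of an unnamed locus on the same strand at PSMA1, PSMA2, PSMB10 and PSMD9. At PSMC2 it lay 2876 bp away. Of the 45 Kbz peaks, 13 (28.9%) covered the TSS of another protein-coding gene, against 21.1% of the Kbz peaks at all protein-coding genes, unnamed loci that overlap the gene included, among them SIRT3 at PSMD13, TBP at PSMB1 and MRPL32 at PSMA2. Such a peak cannot be ascribed to either gene. No peak was the strongest peak of 2 proteasome genes.

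The promoter letters of RefSeq, from 250 bases before to 50 after the start, were found for 44 of the 50 genes, and every one of these starts was the canonical TSS used above. PSMA7, PSMB1, PSMB6, PSMB7, PSMD4 and PSMG3 were not matched. Motifs were counted on both strands. CCGGAAG, the core letters that ETS factors bind, occurred in 17 of 44 proteasome promoters (38.6%), against 14.7% of 15320 promoters of protein-coding genes. TGACNNNGC, the letters of the element bound by NFE2L1 and NFE2L2 (which drive proteasome genes when the enzyme is short), occurred in 12 (27.3% against 14.4%). CCAAT occurred in 20 (45.5% against 36.6%), GGGCGG in 31 (70.5% against 61.8%) and TATAAA in 5 (11.4% against 9.43%). Among promoters of genes with Kbz, 39 of the proteasome and 9619 in all, the shares were 41.0% against 20.6% for CCGGAAG, 25.6% against 15.3% for TGACNNNGC and 48.7% against 37.3% for CCAAT. They were 71.8% (28 of 39) against 73.8% for GGGCGG, which was near the share of all genes with Kbz. For TATAAA they were 10.3% (4 of 39) against 5.15%. None of these motifs contains another. A match of letters is not evidence that a factor is bound.

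The density of CG dinucleotides, given as the ratio of the observed number to that expected from the content of C and G, had a median of 0.788 in the proteasome promoters and 0.783 in all. Over all protein-coding genes it was 0.856 with Kbz and 0.383 without. The 5 proteasome genes without Kbz had 0.922 (PSMA8), 0.737 (PSME1), 0.654 (PSMD5), 0.603 (PSMB8) and 0.169 (PSMB11). Only PSMB11 among them was below the genome-wide median of genes without Kbz. PSMB10, which had Kbz, was also below it, at 0.329, and PSMD2, with its weak peaks, was at 1.03.

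Other genes that act with the proteasome gave counts like those of the subunits. Of 32 such genes (further 19S subunits, deubiquitinases and ligases bound to it, assembly and shuttle factors, the NFE2L factors and their processing, ubiquitin precursors and E1 enzymes), 31 had a control Kac peak within 3 kb, 31 an SB Kac peak and 30 an SB Kbz peak. The shares of all protein-coding genes were 73.1%, 72.1% and 60.5% in the same order. DDI1, a shuttle factor gene, had no peak in any list. USP14, the gene of a deubiquitinase that sits on the 19S particle, had Kac at 56.4 and 65.4 and no Kbz.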

How the data were processed

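ChIP-seq peak lists of 3 libraries were analysed, 1 library per group. According to the study's methods and the labels, the authors digested chromatin with MNase, took 50 bp single reads, mapped them to hg38 with Bowtie2 2.2.6, used SAMtools 0.1.19, and called peaks with MACS2 2.1.1 at a false discovery rate of 0.01, although the deposited −log10 q reached down to 1.31. The deposited lists also hold a display score, which was not used, −log10 p, used only as an alternative ranking, and a fold ratio over background, used only as a percentile within its list. Genes and canonical starts were from GENCODE 44. Peaks sharing at least 1 bp with the window were counted with Python 3.11.15, numpy 2.4.6 and pandas 2.3.3. All 59910 counts equalled those of bedtools 2.31.1, and on simulated data 500 of 500 planted peaks were found. With 1 library per group no test was run, and the precision per library is unknown. Every gene is described by role, and named with values where it lacked a peak, had one of the 3 highest or lowest Kbz ranks or largest Kac rank shifts, had Kbz off the TSS, or was one of PSMB5 to PSMB11. Other values show the spread within a role. The genes and lists were chosen with earlier results of these data known. Alternatives were other thresholds, windows, starts and ranking measures.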

Additional observations from a re-analysis of the deposited data

How the results depend on the processing

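With 14 summary values recomputed under the alternatives, 92 of 105 values stayed within 1.5 times a count or within the 95% order-statistic interval of a median. The others were as follows. The number of genes with Kac and no Kbz after SB, 1 in the report, was 2 at a −log10 q of at least 2, where PSMA7 lost its Kbz peak, 3 at a −log10 q of at least 5, 0 with the strongest 15000 peaks of each list and 0 in a 1 kb window. The median percentile of control Kac was 81.0 at a −log10 q of at least 2, 57.5 at 5 and 52.4 with 15000 peaks, and that of SB Kac was 89.4, 73.3 and 67.3. That of SB Kbz was 50.9 at 5 and 58.3 with 15000 peaks. The lists were cut by −log10 q or −log10 p, while the percentile ranks fold among the peaks that remain. The genes behind a median changed too, from 48 to 33 in control Kac with 15000 peaks. These medians therefore cannot be compared directly with those of the full lists. SB Kac was the longer peak at 15 of 31 genes with no other coding TSS within 3 kb, a count of fewer genes. The excess over all protein-coding genes remained under the stricter thresholds: with 15000 peaks of each list, 33, 42 and 43 of 50 genes had a peak of control Kac, SB Kac and SB Kbz, against 39.3%, 49.1% and 49.2% of all protein-coding genes, and SB Kac ranked higher at 28 of 33 genes, against 64.6%. No paired analysis was possible because there is 1 library in each group. Depth, library and treatment cannot be told apart here, since each list is 1 library, and differences between control and SB rest on 1 library each.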
